A study of Mus musculus with 9 samples.

Results

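The 9 genes described here encode soluble components of the complement system that were read out in mouse aorta: C1qa, C1qb, C1qc, C2, C3, C4b, C7, Cfb and Cfp. They were taken from a fixed list of symbols, matched to 9 of the 33293 gene identifiers in the table. All 9 had at least 1 FPKM (fragments scaled by exon length and library depth) in at least 4 libraries and were therefore among the 13383 genes tested. The RNA came from whole aorta of male mice aged 7 to 8 weeks that ate normal chow. There were 5 libraries from wild-type C57BL/6J mice (WT) and 4 from mice labelled Apoe-knockout (Apoe_KO). Apoe is the gene of the plasma lipoprotein carrier apolipoprotein E. The labels give neither the strain background nor the allele of the knockout, and they do not say whether each library is a separate animal, so p-values measure only the spread between these libraries.

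Complement is a cascade of plasma proteins that marks particles for uptake and can open membranes. In the classical pathway the recognition molecule C1q, built from A, B and C chains, activates the proteases C1r and C1s, which cut C4 and C2 to form an enzyme that cleaves C3. The alternative pathway amplifies the same step through factor B, factor D and properdin, and the terminal components C5 to C9 assemble the membrane attack complex. Most circulating complement is made by hepatocytes, whereas C1q comes mainly from macrophages and dendritic cells, and stromal cells of many tissues make C3 and other components locally.

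The libraries held 17 to 19.8 M reads or fragments, as recovered from the values. Apoe itself was at 513 to 643 FPKM in WT and 5.64 to 6.55 FPKM in Apoe_KO, so every library followed its label. Defining markers of the aortic wall were present throughout, with summed levels over all 9 libraries of 4775 to 6195 FPKM for 8 smooth muscle genes, 193 to 355 for 8 endothelial genes and 2743 to 3568 for 12 fibroblast genes. WT 2 and Apoe_KO 4 stood apart through lymphocyte genes. The 7 B and plasma cell markers summed to 487 and 403 FPKM there and to 15.4 to 40.2 FPKM in the other libraries. The 6 T cell markers summed to 50.3 and 38.6 FPKM there and to 2.68 to 8.25 FPKM in the others. Values without both libraries are given beside the C1q chains, Cfp, Vtn, C5ar2 and the correlations.

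None of the 9 members passed the test of genotype in either direction (limma on log2(FPKM + 1), Benjamini-Hochberg adjustment over all tested genes, threshold 0.05). Of the whole tested set 3.43% passed as higher (459 genes) and 3.92% as lower (524 genes), a split that median centring of the libraries turned to 630 and 269 genes and quantile normalization to 485 and 240. At an unadjusted p below 0.05, 3 members were higher and 0 lower, against 8.59% and 16% of all tested genes. Those 3 members were the chains of C1q. The median log2 fold change was 0.36 for the C1q chains and 0.061 for the other 6 members, beside -0.069 for all tested genes. C1qb was the 1 member whose groups of libraries did not overlap, which 4.9% of tested genes showed as higher and 7.48% as lower in Apoe_KO.

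**Figure D1:**
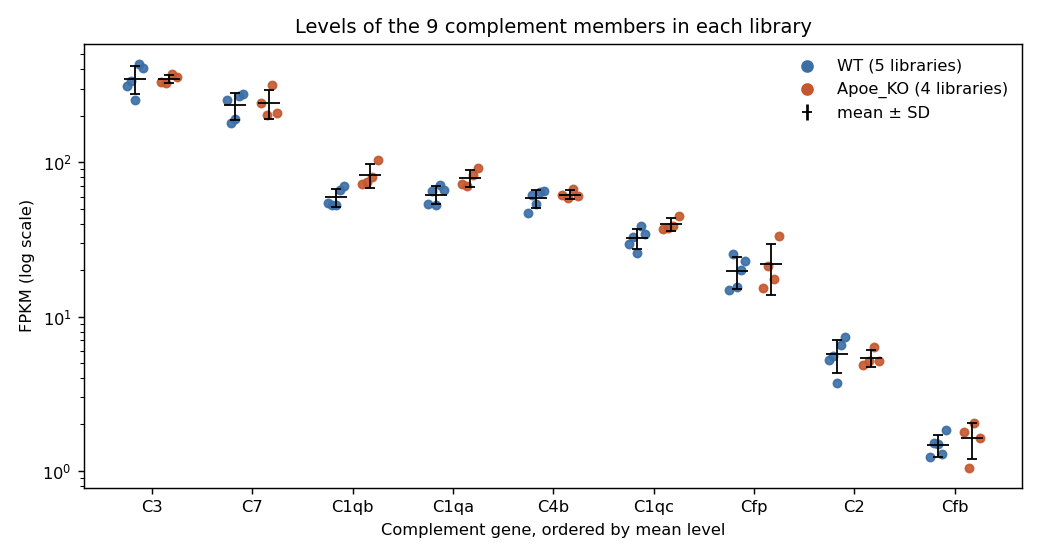
FPKM (log scale) of each of the 9 members, ordered by mean level, with 1 point per library (5 WT in blue, 4 Apoe_KO in orange) and bars for the mean ± SD of each genotype. C3 lies near 348 FPKM and Cfb near 1.5 FPKM, and C1qb is the one gene whose orange points all lie above the blue ones.

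The C1q genes lie side by side on the minus strand of chromosome 4 (GRCm38) in the order C1qb, C1qc, C1qa, over 18.7 kb, with 3616 bases between C1qb and C1qc and 2851 between C1qc and C1qa. C1qa (ENSMUSG00000036887, 136895917 to 136898803) encodes the A chain, C1qb (ENSMUSG00000036905, 136880129 to 136886187) the B chain and C1qc (ENSMUSG00000036896, 136889804 to 136893065) the C chain. No other annotated gene overlaps them. The start regions of C1qb and C1qc are shown because these neighbouring genes varied together across libraries. Each runs from 250 bases before to 50 bases after the start in RefSeq (GRCm38.p6, minus strand, chr4:136886151-136886450 for C1qb and chr4:136892865-136893164 for C1qc). Capitals mark the letters GAGGAA, the core bound by PU.1, a transcription factor of myeloid cells, on either strand.
C1qb: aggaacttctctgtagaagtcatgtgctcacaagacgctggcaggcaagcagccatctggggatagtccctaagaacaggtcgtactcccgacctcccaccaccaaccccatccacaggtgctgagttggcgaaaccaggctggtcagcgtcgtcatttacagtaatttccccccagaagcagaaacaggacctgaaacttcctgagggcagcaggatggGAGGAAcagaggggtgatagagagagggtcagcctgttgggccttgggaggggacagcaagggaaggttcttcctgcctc
C1qc: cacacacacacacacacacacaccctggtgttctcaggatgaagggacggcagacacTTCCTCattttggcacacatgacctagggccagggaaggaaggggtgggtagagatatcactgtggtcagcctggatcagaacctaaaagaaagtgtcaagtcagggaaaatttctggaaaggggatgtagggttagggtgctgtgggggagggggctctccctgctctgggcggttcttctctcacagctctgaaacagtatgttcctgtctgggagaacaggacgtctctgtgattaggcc
C1qb held 1 match, beginning 30 bases before the start, and C1qc held 1, beginning 193 bases before it. These letters occur in 28.3% of the 32851 start regions in the table, so a match by itself is common. Of the members 5 had an entry in that table (C1qb, C1qc, C3, C7 and Cfp).

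C1qb was at 54.1, 53.2, 52.7, 66.1 and 69.8 FPKM in WT 1 to WT 5 and at 72.4, 74.7, 80.4 and 103.6 FPKM in Apoe_KO 1 to Apoe_KO 4. Every Apoe_KO library lay above every WT library, with WT 5 and Apoe_KO 1 closest, and Apoe_KO 4 was the highest. The means were 59.2 ± 8.12 FPKM (SD, n = 5) and 82.8 ± 14.3 FPKM (SD, n = 4), a ratio of 1.40. The log2 fold change was 0.47 (SE 0.13, 95% interval 0.19 to 0.76) with a limma adjusted p of 0.0532, which did not pass. It passed in 5 of 18 alternatives and did not pass in 13. The passes were with each library centred on its median (0.0338), with a minimum of 10 FPKM (0.0376) and with voom on recovered reads (0.0452). The others were without WT 5 (0.0497) and with replicate number as a block (0.0470). It did not pass with quantile normalization (0.0714), no filter (0.131) or library weights (0.0633), nor without Apoe_KO 3 (0.122) or Apoe_KO 4 (0.0964). Without WT 2 and Apoe_KO 4 the log2 fold change was 0.33 (adjusted p = 0.156).

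C1qa was at 53.3, 65.4, 52.7, 70.8 and 65.8 FPKM in WT and at 72.2, 69.7, 82.9 and 91.5 FPKM in Apoe_KO. The groups overlapped by a single pair, Apoe_KO 2 lying just under WT 4. The means were 61.6 ± 8.16 FPKM (SD, n = 5) and 79.1 ± 10.1 FPKM (SD, n = 4), with a log2 fold change of 0.36 (SE 0.12, 95% interval 0.098 to 0.61) and a limma adjusted p of 0.0925. With median centring C1qa passed (0.0453), the only one of 18 alternatives in which it did. Without WT 2 and Apoe_KO 4 the log2 fold change was 0.31 (adjusted p = 0.209).

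C1qc was at 29.7, 33.0, 26.0, 38.6 and 34.1 FPKM in WT and at 37.2, 37.7, 38.4 and 45.2 FPKM in Apoe_KO. WT 4 lay above 3 of the 4 Apoe_KO libraries, and WT 3 was the lowest of all. The means were 32.3 ± 4.72 FPKM (SD, n = 5) and 39.6 ± 3.73 FPKM (SD, n = 4), and the log2 fold change was 0.30 (SE 0.11, 95% interval 0.050 to 0.54, limma adjusted p = 0.132). Apoe_KO 4 stood above the rest, and without it and WT 2 the log2 fold change was 0.24 (adjusted p = 0.307).

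The proportions of the chain transcripts varied between libraries. The FPKM ratio of C1qb to C1qa was 0.96 ± 0.096 in WT (SD, n = 5) and 1.04 ± 0.072 in Apoe_KO (SD, n = 4), with the lowest value, 0.81, in WT 2 and the highest, 1.13, in Apoe_KO 4. The ratio of C1qc to C1qa ran from 0.46 to 0.56 over the 9 libraries. Summed over the chains, C1q was at 131 to 176 FPKM in WT and 182 to 240 FPKM in Apoe_KO. These sums did not overlap, as a description of genes that vary together and with no test.

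C1q is a product of macrophages. The median log2 fold change of 12 macrophage markers was 0.20, beside -0.069 for all tested genes. Of these markers 3 were called higher and 0 lower, against 3.43% and 3.92% of all tested genes. The called ones were Mertk (0.91), a receptor for the uptake of dying cells, Cd14 (1.2), a co-receptor for lipopolysaccharide, and Lyve1 (0.81), a hyaluronan receptor of resident macrophages and lymphatic endothelium. Csf1r, the receptor of macrophage colony-stimulating factor, was at 0.18 (limma adjusted p = 0.493) and Adgre1, which encodes F4/80, at 0.21 (0.344). The summed markers were at 313 to 551 FPKM in WT and 399 to 853 FPKM in Apoe_KO, the highest in Apoe_KO 4. Lyz2, 1 of the 12 markers, was alone at 167 to 383 FPKM in WT and 192 to 574 FPKM in Apoe_KO. Its highest values were in WT 2 (383 FPKM) and Apoe_KO 4 (574 FPKM). The range of the sums is thus largely that of Lyz2, and their overlap says little about the other markers. The part of the macrophage markers in the C1q values was not tested. Per unit of Csf1r, C1qb was at 2.01 to 2.77 in WT and 2.79 to 3.32 in Apoe_KO. For C1qa that ratio was 2.32 to 2.76 in WT and 2.48 to 3.10 in Apoe_KO, and for C1qc 1.25 to 1.37 and 1.22 to 1.68. Csf1r is 1 of the 12 markers, and ratios to the others were not formed. The log2 fold change of C1qb (0.47) lay above that of Csf1r and below those of Mertk, Cd14 and Lyve1, so such a ratio depends on the marker chosen. The 6 dendritic cell markers, of cells that can also make C1q, summed to 17.2 FPKM in WT 2, 25.4 FPKM in Apoe_KO 4 and 6.88 to 10.3 FPKM in the other libraries. Of them Xcr1 was at most 0.55 FPKM, Flt3 1.26, Clec9a 2.71, Zbtb46 3.39, Cd209a 8.16 and Ccr7 11.8 FPKM, and their part in the C1q values was not tested. In RNA of a whole tissue a change in the number of cells of a type and a change in RNA per cell cannot be told apart.

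C4b (ENSMUSG00000073418, chromosome 17, 34728380 to 34743882, minus strand) encodes C4, whose cleaved form attaches to surfaces. Its values were 47.1, 61.7, 53.7, 64.0 and 65.6 FPKM in WT and 61.0, 58.4, 67.4 and 60.3 FPKM in Apoe_KO. The Apoe_KO libraries sat inside the WT range but for Apoe_KO 3, and WT 1 was the lowest. The log2 fold change was 0.088 (SE 0.10, 95% interval -0.14 to 0.32, limma adjusted p = 0.637). C4a, the near-identical neighbour gene, was at 0.27 FPKM or less in every library, and reads shared between these copies could have been assigned to either.

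C2 (ENSMUSG00000024371, chromosome 17, 34862604 to 34898265, minus strand) encodes the protease that joins C4b in the classical C3 convertase. It lies 85 bases from Cfb, its relative in the alternative pathway, and its bounds hold Zbtb12 on the other strand. C2 was at 5.23, 5.59, 3.70, 6.59 and 7.34 FPKM in WT and at 4.84, 5.13, 6.38 and 5.12 FPKM in Apoe_KO. WT held both the lowest library, WT 3, and the highest, WT 5. The log2 fold change was -0.050 (SE 0.15, 95% interval -0.40 to 0.30, limma adjusted p = 0.872), and its sign turned with median centring (0.018).

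C3 (ENSMUSG00000024164, chromosome 17, 57203970 to 57228136, minus strand) is the protein on which all pathways meet. It was the most abundant member per length, ranking 56 of 13383 tested genes by mean FPKM, with 24581 to 42576 reads per library. Its start region (RefSeq, GRCm38.p6, chr17:57228087-57228386, minus strand) is shown as that of the most abundant member. Capitals mark TTGCNNAA, a C/EBP core, and TATAAA, the TATA box, on either strand.
C3: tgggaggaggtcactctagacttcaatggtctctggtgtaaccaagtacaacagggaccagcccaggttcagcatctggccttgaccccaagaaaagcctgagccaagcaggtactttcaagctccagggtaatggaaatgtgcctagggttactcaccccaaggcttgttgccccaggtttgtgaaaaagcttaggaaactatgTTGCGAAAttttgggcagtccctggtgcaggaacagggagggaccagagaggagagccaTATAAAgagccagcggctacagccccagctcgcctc
The C/EBP match began 45 bases before the annotated start and the TATA match 14 bases after it, and such letters were found in 10.8% and 13.6% of all start regions.

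C3 was at 312, 335, 254, 433 and 407 FPKM in WT and at 333, 329, 372 and 356 FPKM in Apoe_KO. All 4 Apoe_KO libraries lay within the WT range. The means were 348 ± 72.5 FPKM (SD, n = 5) and 348 ± 20.4 FPKM (SD, n = 4), with a log2 fold change of 0.023 (SE 0.15, limma adjusted p = 0.940). The 95% interval, -0.30 to 0.35, leaves room for ratios from 0.81 to 1.27. The sign turned without WT 1, WT 3 or Apoe_KO 3 and with library weights.

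C3, C4b, C2 and Cfb are known to respond to inflammatory cytokines and interferon, and the listed targets of both were examined beside them. Of 12 listed acute phase and NF-kappaB target genes 8 were tested. Of these 8, 2 were called higher and 0 lower, against 3.43% and 3.92% of all tested genes. The 2 were Nfkbia (1.19), an inhibitor of NF-kappaB, and Cebpd (1.08), a C/EBP factor of the acute phase. The median over the 8 was 0.63, beside -0.069 for all tested genes. Of 12 interferon-stimulated genes 1 was called lower and 0 higher, against the same shares. The median of these 12 was -0.45. C3, C4b, C2 and Cfb had log2 fold changes of 0.023, 0.088, -0.050 and 0.078, none of which passed. The part of these signals in the member values was not tested.

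Cfb (ENSMUSG00000090231, chromosome 17, 34856374 to 34862518, minus strand) encodes factor B, the protease of the alternative C3 convertase, and was the lowest member. It was at 1.24, 1.52, 1.48, 1.28 and 1.83 FPKM in WT and at 1.78, 1.05, 2.05 and 1.62 FPKM in Apoe_KO. Apoe_KO 2 was the lowest and Apoe_KO 3 the highest of all 9. With 55 to 109 reads per library the log2 fold change was 0.078 (SE 0.13, 95% interval -0.21 to 0.37, limma adjusted p = 0.750). The annotated read-through gene Gm20547 covers both C2 and Cfb on the same strand.

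Cfp (ENSMUSG00000001128, chromosome X, 20925454 to 20931555, minus strand) encodes properdin, which stabilizes the alternative convertase and is made by myeloid cells. It was at 14.8, 25.6, 15.6, 19.97 and 22.9 FPKM in WT and at 15.3, 21.4, 17.4 and 33.1 FPKM in Apoe_KO. The highest library of each genotype was the one with the lymphocyte transcripts, WT 2 and Apoe_KO 4. The log2 fold change was 0.10 (SE 0.23, 95% interval -0.41 to 0.62, limma adjusted p = 0.814), and without these libraries it was -0.011. Its start region held 2 matches to GAGGAA, both after the annotated start.

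C7 (ENSMUSG00000079105, chromosome 15, 4988762 to 5063740, minus strand) encodes the component that lets the growing attack complex insert into membranes. It ranked 109 of 13383 tested genes, the next most abundant member after C3. C7 was at 254, 181, 190, 270 and 278 FPKM in WT and at 241, 203, 315 and 208 FPKM in Apoe_KO. WT 2 was the lowest and Apoe_KO 3 the highest, and the groups overlapped over most of their ranges. The log2 fold change was 0.045 (SE 0.17, 95% interval -0.34 to 0.43, limma adjusted p = 0.898), with the sign turned without WT 2, WT 3 or Apoe_KO 3.

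**Figure D2:**
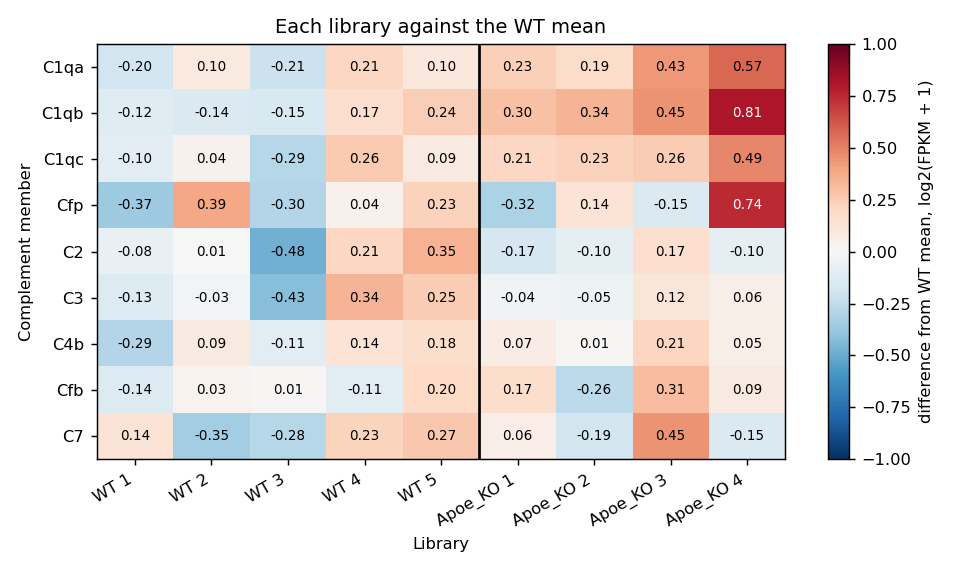
Difference of each library (columns, WT left of the line and Apoe_KO right of it) from the WT mean, on log2(FPKM + 1), for each member (rows), with red for higher and blue for lower. The C1q rows are positive in all 4 Apoe_KO libraries and reach 0.81 for C1qb in Apoe_KO 4, while the C2 and C3 rows are lowest in WT 3 (-0.48 and -0.43).

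By mean FPKM over the 9 libraries the order was C3 (348), C7 (238), C1qb (69.7), C1qa (69.4), C4b (59.9), C1qc (35.5), Cfp (20.7), C2 (5.55) and Cfb (1.54). C3 exceeded C7 in each of the 9 libraries, although their ranges over libraries overlapped. C1qb exceeded C1qa in 6 of 9 libraries and C1qa exceeded C4b in 8 of 9, so these neighbours were not separated by their spread. C7 and C1qb, C4b and C1qc, Cfp and C2, and C2 and Cfb had ranges that did not overlap. C3 was 171 to 339 times Cfb within a library.

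Several members varied together across the 9 libraries. Pearson's r of log2(FPKM + 1) was 0.95 for C1qa with C1qc, 0.91 for C1qa with C1qb and 0.89 for C1qb with C1qc. It was 0.92 for C2 with C3, genes that lie far apart on chromosome 17. With the genotype means subtracted the values were 0.90, 0.79, 0.78 and 0.93, and C3 was then as close to C1qc (0.87) and C1qa (0.79) as the C1q chains were to each other, with C1qa and C4b at 0.73. Without WT 2 and Apoe_KO 4 the first 4 pairs were at 0.92, 0.96, 0.90 and 0.95. The lowest over 9 libraries was -0.32, for C7 with Cfp, which was 0.17 without these libraries. These are descriptions over 9 libraries that share depth, tissue composition and normalization. C2 and C3 were lowest in WT 3 and highest in WT 5 and WT 4, respectively. Markers of mesothelium, the covering layer of body cavities, summed to 12.5, 21, 3.0, 18.6 and 30.6 FPKM in WT 1 to WT 5 and to 14.6, 6.63, 10.1 and 6.77 FPKM in Apoe_KO 1 to Apoe_KO 4. WT 3 had the lowest and WT 5 the highest of these sums. C3 was at 254 and 407 FPKM in those libraries, and at 329 and 356 FPKM in Apoe_KO 2 and Apoe_KO 4. Hepatocyte markers summed to 23.6 FPKM in WT 3 and to 5.33 to 7.89 FPKM in the other libraries, and the albumin gene Alb was at 12.2 FPKM in WT 3. WT 3 was also the lowest library for C2, C3, C1qa, C1qb and C1qc. The part of these cell types in the values was not tested.

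Among tested genes outside the members, those most like each member over the 9 libraries (Pearson's r of log2(FPKM + 1)) were the following. For C1qb they were the chemokine genes Ccl9 (0.978) and Ccl6 (0.965) and the phospholipid synthesis gene Cept1 (0.972). For C1qa they included Vps26a (0.951), of the retromer, and Slc45a3 (0.950), and for C1qc the pseudogene Gm10110 (0.949), Vps26a (0.942) and Rpusd2 (0.923). C2 was most like Dennd2a (0.909), Ptpn13 (0.888) and Snora17 (0.882), and C3 was most like Snora17 (0.910), Igfbp6 (0.897) and Aox3 (0.894). C4b was closest to Rbms2 (0.911), Stxbp3 (0.906) and Gas1 (0.895), C7 to Arhgap21 (0.952), March8 (0.930) and Lgi2 (0.928), and Cfb to Comp (0.933), Sntb2 (0.926) and E230014E18Rik (0.925). Cfp was closest to the ribosomal pseudogene Rpl14-ps1 (0.984), Rps10 (0.969) and Npl (0.961). These were the highest of 13383 genes over only 9 libraries. Without WT 2 and Apoe_KO 4 the values for the same genes were 0.89 or higher but for Npl with Cfp (0.87).

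Of 46 other complement genes listed, 45 were matched (Fcnb was not analysed here) and 22 passed the filter. Of these 22, 0 were called higher and 1 lower, with a median log2 fold change of -0.039, beside the 3.43% and 3.92% of the whole tested set. The plot of genotype differences sets them beside the members. The initiating proteases C1ra and C1s1 were abundant, at 34.2 to 49.8 and 61.6 to 87.9 FPKM, and their log2 fold changes were 0.13 and -0.045. Lectin pathway recognition genes had values of 0.17 for Colec12, -0.24 for Colec11 and 0.16 for Fcna, and none passed. Mbl1 and Mbl2, the mannose-binding lectins of liver, were at 0.14 FPKM or less.

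**Figure D3:**
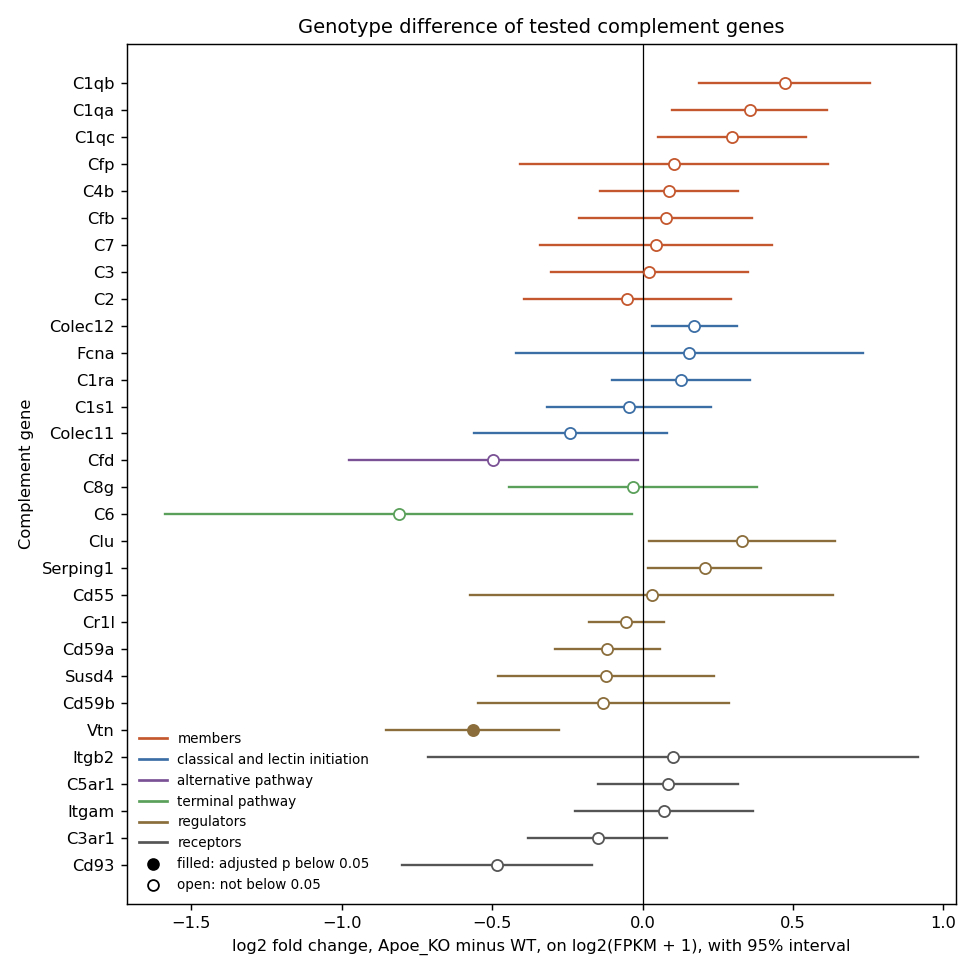
Log2 fold change of Apoe_KO minus WT on log2(FPKM + 1), with its 95% interval, for tested complement genes, coloured by role. Only Vtn is filled (adjusted p below 0.05), and the C1q chains have the highest values among the members (0.30 to 0.47).

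Cfd, which encodes factor D of the alternative pathway, also called adipsin, was the most abundant complement gene of all. Its mean was 2704 ± 509 FPKM over WT (SD, n = 5) and 1967 ± 626 FPKM over Apoe_KO (SD, n = 4), with a log2 fold change of -0.50 (SE 0.22, limma adjusted p = 0.190). Cfd is an adipocyte product, and 6 white adipocyte markers summed to 1473 to 2275 FPKM in WT and 1091 to 1896 FPKM in Apoe_KO. They were lowest in Apoe_KO 1 and Apoe_KO 3, the libraries in which Cfd was lowest (1310 and 1628 FPKM). The part of fat tissue in Cfd was not tested.

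Several partners of C7 in the attack complex were near 0. Hc, which encodes C5, and C8a, C8b and C9 were at 0.18 FPKM or less in every library. C8g, for the gamma chain of C8, was at 1.17 to 3.05 FPKM. C6, beside C7 on chromosome 15, was at 5.96, 3.79, 4.87, 9.09 and 2.63 FPKM in WT and at 0.89, 4.04, 2.05 and 3.4 FPKM in Apoe_KO. WT 2 and WT 5 lay among the Apoe_KO libraries, and the log2 fold change of -0.81 (SE 0.35, 95% interval -1.59 to -0.034) had a limma adjusted p of 0.186.

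Of the regulators, which protect host cells, Vtn fell. Vtn encodes vitronectin, which binds the attack complex and keeps it out of membranes. It was at 8.30, 7.27, 7.61, 9.19 and 7.57 FPKM in WT and at 4.44, 7.19, 4.50 and 4.51 FPKM in Apoe_KO. Apoe_KO 2 lay close under the lowest WT library and the other Apoe_KO libraries far below. The log2 fold change was -0.56 (SE 0.13, limma adjusted p = 0.0298). The call was lost without WT 1, WT 4, WT 5, Apoe_KO 1, Apoe_KO 3 or Apoe_KO 4 (adjusted p = 0.0551 to 0.0978), without WT 2 and Apoe_KO 4 (0.0947), with no filter (0.0809), with median centring (0.0672) and with quantile normalization (0.0758). Other regulators were abundant and not called: Serping1, the C1 inhibitor gene, at 225 to 315 FPKM (log2 fold change 0.21, limma adjusted p = 0.163) and Clu, for clusterin, at 125 to 221 FPKM (0.33, 0.177). Among the alternatives run Clu passed only without Apoe_KO 2 (0.45, adjusted p = 0.0472). The membrane regulator genes Cd59a and Cr1l had values of -0.12 and -0.054.

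Among the receptors, 5 were tested and 0 called. Cd93, a receptor of endothelium and myeloid cells first described as a C1q receptor, averaged 21 ± 3.05 FPKM over WT (SD, n = 5) and 14.8 ± 2.98 FPKM over Apoe_KO (SD, n = 4), with a log2 fold change of -0.48 (SE 0.14, limma adjusted p = 0.0686). Among the alternatives run Cd93 passed only without WT 1 (0.0357), without Apoe_KO 4 (0.0368) and with library weights (0.0217). With no filter its adjusted p was 0.164. Of the 8 endothelial markers listed beside it 1 was called lower, Kdr at -0.58, against 3.92% of all tested genes. The median of these 8 was -0.34, and their part in Cd93 was not tested. C5ar1, the main receptor of the inflammatory fragment C5a, was at 3.74 to 4.72 FPKM in WT and 3.84 to 5.66 FPKM in Apoe_KO, and C3ar1, the C3a receptor gene, was at 2.21 to 3.29 FPKM overall.

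C5ar2, the other C5a receptor gene, was below the filter and was examined after its values were seen. It was at 0.64, 0.69, 0.64, 0.53 and 0.72 FPKM in WT and at 0.086, 0.076, 0.16 and 0.12 FPKM in Apoe_KO. These values correspond to 36 to 48 reads per WT library and 5 to 11 reads per Apoe_KO library, and the groups were far apart. The Apoe_KO mean was 0.17 of the WT mean. In the fit with no filter (30432 genes, of which 0.651% were called lower) the log2 fold change was -0.56 (SE 0.075, limma adjusted p = 0.00954), a scale on which a level this low is strongly compressed. Without WT 2 and Apoe_KO 4 it was not called there, with a log2 fold change of nearly the same size (-0.56, adjusted p = 0.0635). C5ar2 (ENSMUSG00000074361, chromosome 7, minus strand) lies 2.59 kb from C5ar1 and 3.45 Mb from Apoe on the same chromosome.

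**Figure D4:**
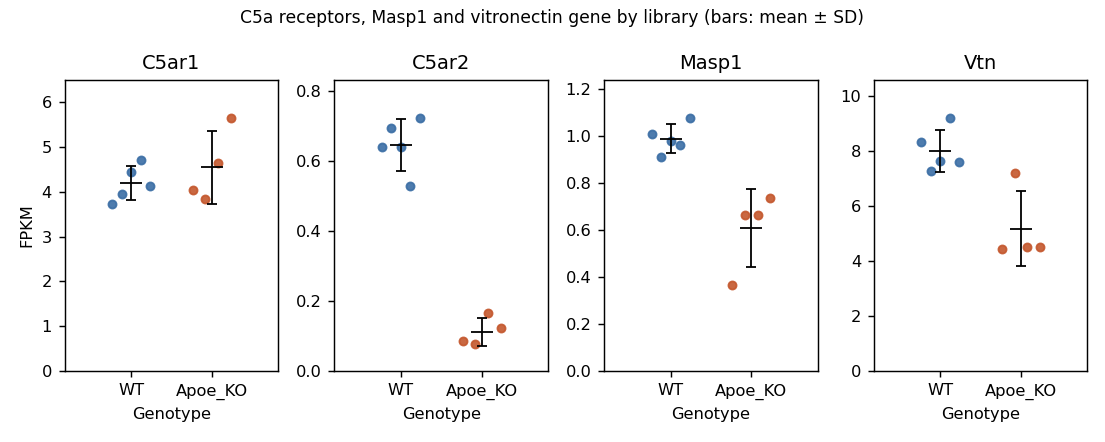
FPKM of C5ar1, C5ar2, Masp1 and Vtn in each library by genotype (points), with bars for the mean ± SD over 5 WT and 4 Apoe_KO libraries and each axis starting at 0. The C5ar2 points lie at 0.53 to 0.72 FPKM in WT and 0.076 to 0.16 FPKM in Apoe_KO, while those of the neighbouring C5ar1 overlap.

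Masp1, which encodes a protease of the lectin pathway, was also below the filter and was chosen after its values were seen. It was at 0.91 to 1.08 FPKM in WT and 0.36 to 0.74 FPKM in Apoe_KO, with 70 to 197 reads per library. Fitted with no filter, it differed by -0.31 on the log2 scale (SE 0.095, limma adjusted p = 0.169) and did not pass. Of the 8 other complement genes under the filter that reached 0.5 FPKM in a library, 4 had groups that did not overlap, all lower in Apoe_KO (C5ar2, Masp1, Cd46 and Csmd1). Among all 5225 such genes 3.52% were lower and 0.842% higher without overlap. C5ar2 and Cd46 reached 0.5 FPKM through WT alone, so this count is a description and nothing is read from it. The remaining 15 genes under the filter never reached 0.5 FPKM.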

How the data were processed

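RNA-seq of mouse aorta was deposited as 1 table of FPKM values for 5 WT and 4 Apoe_KO libraries, prepared from total RNA after removal of ribosomal RNA per the labels' protocols, whereas the molecule label says polyA RNA. Per the submitters' processing notes the build was GRCm38 and limma was used. No source used here gives the aligner, the counting, the annotation or the strandedness. The deposited header names no unit. FPKM was inferred: multiplied by union exon length (GENCODE mouse release 21) and by one depth per library, 95.2% to 95.5% of values above 0 became whole reads (within 0.1). Of 33293 identifiers, 33240 were in that annotation. The filter kept genes reaching 1 FPKM in 4 or more libraries. Genotype was the only term of a limma fit (version 3.58.1, R 4.3.3, trend and robust) to log2(FPKM + 1), with a false discovery rate of 0.05. This scale understates changes of low genes. The fit was also run on simulated counts. These had the same spread for every gene and no outlying library, so they do not show how the fit treats libraries such as WT 2 and Apoe_KO 4. Every member is named, as is each called gene of the other complement lists and, per member, the 3 most similar genes. A few genes these rules name are not reported here. Further genes are marked or serve to describe a list. Members, lists and tests were chosen with earlier results of these data known. Alternatives were the replicate block, leaving out libraries, pseudocount 0.1, other filters, scalings, library weights and voom, and, added after seeing the data, no filter combined with these and correlations without WT 2 and Apoe_KO 4. Start regions were searched on both strands for cores of PU.1, C/EBP, TATA, NF-kappaB, ISRE and GAS, of which NF-kappaB and ISRE had no match in the members with an entry. Tables used pandas 2.3.3 (Python 3.11.15, numpy 2.4.6), and plots matplotlib 3.10.9.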

Additional observations from a re-analysis of the deposited data

Results flagged for a closer look

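Single libraries far from the rest of their genotype were looked for in 34 complement genes, over 68 groups of libraries, and 9 were found. Chance is taken to flag about 1 in 20 groups. The groups share the same 9 libraries and hold genes that vary together, so no excess over chance is read from this count. Among the members 1 library was flagged: Apoe_KO 4, in which C1qc was at 45.2 FPKM while the other Apoe_KO libraries were close together. In the same library Itgb2, the integrin beta chain of complement receptor 3, was at 18.4 FPKM. Cd55, a membrane regulator that speeds convertase decay, was at 15.6 FPKM in WT 2 and 15.8 FPKM in Apoe_KO 4, and Cr2, the complement receptor of B cells, was at 7.83 FPKM in WT 2 and 6.72 FPKM in Apoe_KO 4. These are the libraries with high B and T cell transcripts, and the part of those cells in the values was not tested. Vtn was at 7.19 FPKM in Apoe_KO 2, above the other Apoe_KO libraries, C3ar1 at 2.93 FPKM in Apoe_KO 1 and Colec12 at 54.5 FPKM in WT 1.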

How the results depend on the processing

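The C1q chains kept a positive log2 fold change in all 18 alternatives run for each (C1qa 0.28 to 0.42, C1qb 0.33 to 0.54, C1qc 0.22 to 0.36). With 459 genes called higher and 524 lower at first, the counts were 206 and 170 without WT 2 and Apoe_KO 4, 247 and 198 with no filter, and 702 and 1055 with library weights. The number lower was 220 with a minimum of 10 FPKM, 269 with median centring and 240 with quantile normalization. Leaving out 1 library gave 208 to 572 higher and 174 to 666 lower. Members called higher were 0 at first, 1 with a minimum of 10 FPKM, 2 with median centring, 1 with voom and 0 to 1 without 1 library. No member was called lower in any alternative run. Other complement genes called lower were 1 at first, 0 without WT 2 and Apoe_KO 4, with a minimum of 10 FPKM, with median centring or with quantile normalization, 2 with library weights, and 0 to 1 without 1 library, and those called higher were 0 to 1 without 1 library. With no filter the 1 called lower was C5ar2 and not Vtn. With the replicate block the counts were 121 genes higher and 62 lower, 1 member higher (C1qb, 0.53, adjusted p = 0.0470) and 0 other complement genes lower, and C2 turned to 0.036. No Apoe_KO library shares the number of WT 5, so the block takes WT 5 out of the contrast. The fold changes of C1qb and C2 with the block therefore equal those without WT 5 and are not separate evidence. C5ar2 lost its call with the block (-0.55, adjusted p = 0.216). Deviations of same-numbered libraries correlated at 0.26, -0.27, -0.13 and -0.22. Only Apoe_KO 1 was most like the WT library of its own number. So few correlations cannot decide whether the numbers pair the samples. Signs turned for C2 with median centring (0.018) and quantile normalization (0.030), for C3 with library weights (-0.048), and for Cfp without WT 2 and Apoe_KO 4 (-0.011) and with library weights (-0.073). Without 1 library C2 ran from -0.17 to 0.036, C3 from -0.085 to 0.11, C7 from -0.089 to 0.12 and Cfp from -0.11 to 0.25. C2, Cfb and Vtn were not tested with a minimum of 10 FPKM. The cause of these changes was not tested. For an exon length of 2 kb a single read equals 0.0253 to 0.0294 FPKM, and values such as those of C5ar2 in Apoe_KO rest on few reads.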
